A study of Mus musculus with 6 samples.

Results

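Described here are 10 genes that handle arginine, nitric oxide and polyamines in mouse microglia: Nos2, Arg2, Ass1, Asl, Odc1, Azin1, Oaz1, Oaz2, Srm and Sat1. They were chosen by symbol as a metabolic group, with earlier results of these data known. Each matched 1 row among the 26096 genes of the deposited table. Wild-type microglia, the resident macrophages of the brain, were given culture medium conditioned by bone marrow-derived macrophages (BMDMs), and their RNA was sequenced. In 3 samples the BMDMs were normal (C CM, here control medium). In the other 3 they were ferroptotic (FeM CM, here ferroptotic medium), that is, dying by iron-dependent lipid peroxidation. The labels do not state the source and age of the microglia, the inducer of ferroptosis and the length of exposure, and the samples analysed include no unconditioned medium. Whether the 3 samples of a group were grown as separate cultures is not stated; the p-values therefore reflect the spread among these libraries alone, part or all of which may be technical.

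Arginine is shared by enzymes with different products. The inducible nitric oxide synthase encoded by Nos2 turns it into nitric oxide and citrulline, and Ass1 and Asl encode the enzymes that return citrulline to arginine. Arginases, such as the mitochondrial enzyme encoded by Arg2, cleave arginine to urea and ornithine. Ornithine decarboxylase, encoded by Odc1, makes putrescine from ornithine, and aminopropyl transfers then give spermidine and spermine. Macrophages and microglia are known for inducing Nos2 when stimulated by bacterial products and cytokines.

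Between 39624311 and 50557794 reads per library were assigned to genes, as worked out from the deposited values. Microglia and macrophage markers summed to 139869 to 145089 normalized counts (reads divided by the authors' per-library size factor) in control libraries and 118466 to 119865 in ferroptotic libraries, and 8 of the 12 listed passed the filter on low values. Of those most specific to microglia, P2ry12 had 3 reads, Fcrls 5 and Tmem119 21 over all 6 libraries, and Sall1 was not matched, so the label is carried by general macrophage genes such as Csf1r and Cd68. Neutrophil markers summed to 9.25 to 15.7 and 136 to 160 normalized counts, nearly all from S100a8, with Mpo at 7 and Elane at 3 reads over 6 libraries and Ly6g not matched. Oligodendrocyte markers summed to 6824 to 7335 and 4277 to 4487, mostly Mbp, while Mog and Mobp were not matched. Astrocyte markers summed to 880 to 977 and 1152 to 1218, and endothelial markers to 309 to 337 and 388 to 405. Neuron markers summed to 91.0 to 119 and 174 to 227, fibroblast markers to 11.7 to 11.8 and 44.0 to 76.4, and the T and B cell markers were not matched. Within these sums, means of single genes also went the other way: Adgre1 went from 1892 to 3132, Aldh1l1 from 124 to 79.9, Mag from 68.9 to 141 and Cdh5 from 97.2 to 71.8. The part of these markers in the results was not tested.

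All 10 genes differed between the media. With ferroptotic medium 7 were higher (Nos2, Arg2, Ass1, Asl, Odc1, Oaz2 and Sat1) and 3 were lower (Azin1, Oaz1 and Srm) at a limma adjusted p of 0.05, against 42.5% of the 15597 genes tested, 19.7% higher and 22.8% lower. In 10 of 10 the libraries of the groups did not overlap, which held for 53.7% of all genes tested. Only Arg2 changed at least 2-fold, a size reached with a call by 7.65% of genes. The median absolute log2 difference was 0.75 over the 10 genes and 0.29 over all genes tested. Because the 10 genes were chosen with earlier results of these data known, the values over all genes are a background and do not test the group. In bulk RNA, a changed share of cells that express a gene and a changed amount of its RNA per cell cannot be told apart.

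**Figure D1:**
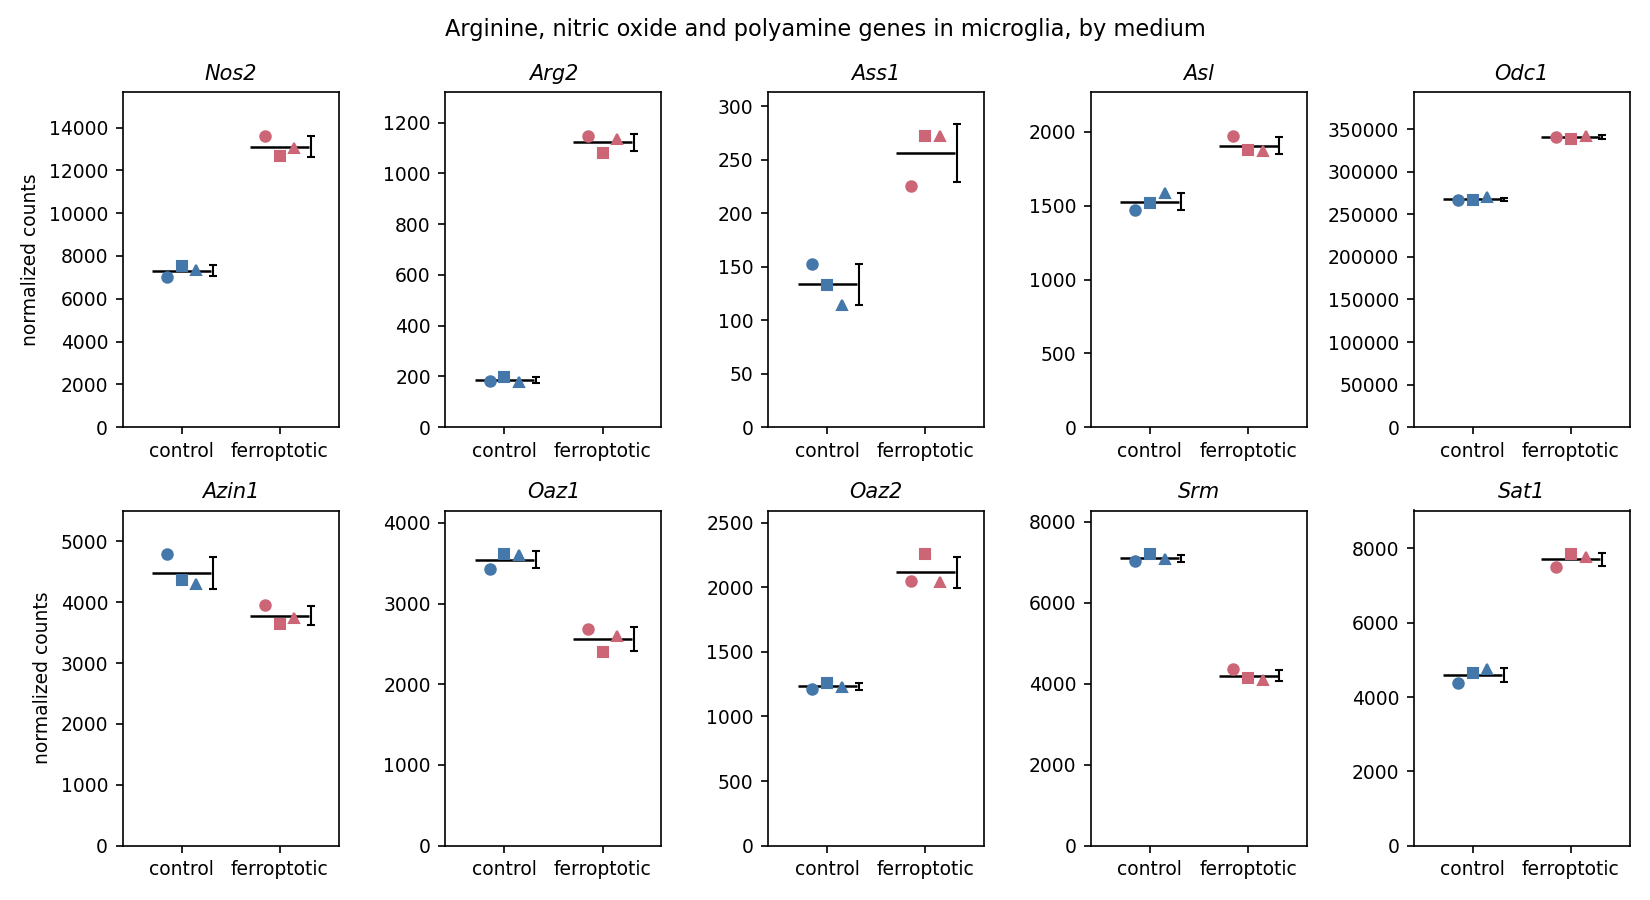
Normalized counts of each gene (vertical axis, from 0) in control and ferroptotic medium; each symbol is a library (circle, square and triangle for replicates 1, 2 and 3), the line is the mean and the bar its SD over 3 libraries. In every panel the groups are apart, with Azin1, Oaz1 and Srm lower in ferroptotic medium.

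Nos2 (ENSMUSG00000020826), the inducible nitric oxide synthase gene, was already abundant in control medium. It had 7032, 7552 and 7327 normalized counts in control libraries and 13616, 12659 and 13031 in ferroptotic libraries. Every ferroptotic library lay above every control library. The means were 7304 ± 261 and 13102 ± 483 (SD, n = 3 per group), a log2 difference of 0.84 (SE 0.04; limma adjusted p = 7.27e-07), or 1.79-fold with a 95% interval of 1.68 to 1.91.

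Arg2 (ENSMUSG00000021125), the mitochondrial arginase gene, changed most. It had 181, 198 and 178 normalized counts in control libraries and 1148, 1082 and 1135 in ferroptotic libraries. The low and high libraries formed separate groups with little spread within each. The log2 difference was 2.59 (SE 0.09; limma adjusted p = 9.95e-08), or 6.01-fold (95% interval 5.25 to 6.89), and 0.91% of genes tested had a larger absolute difference. Arg2 is also the only one of the 10 in the authors' shorter table of 1699 genes, which they named as significant. The authors' cut-offs for that table were not used here. In it the FPKM of Arg2, a value per transcript length and depth, was 2.71 ± 0.167 in control and 16.2 ± 0.468 in ferroptotic medium (SD, n = 3). The other arginase gene, Arg1, had 37 reads over the 6 libraries and was below the filter.

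Nos2 and Arg2 thus stood in a different proportion in the media. Per kilobase of transcript, the ratio of Nos2 to Arg2 was 13.4 ± 0.545 in control and 3.98 ± 0.0647 in ferroptotic medium (SD, n = 3), a log2 difference of -1.75. The exact two-sided permutation test gave p = 0.1, the smallest that 3 libraries against 3 allow, and 0.1 after Benjamini-Hochberg adjustment over the 8 ratios and sums computed. The ratio fell although Nos2 itself rose.

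Ass1 (ENSMUSG00000076441), argininosuccinate synthase, had the lowest level of the 10 per kilobase of transcript. It had 153, 133 and 115 normalized counts in control libraries and 225, 272 and 272 in ferroptotic libraries. The groups were apart, but the spread within them was wide relative to that of Nos2. The log2 difference was 0.94 (SE 0.15; limma adjusted p = 0.00105), or 1.92-fold with a 95% interval of 1.51 to 2.44. These values rest on 117 to 266 reads per library.

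Asl (ENSMUSG00000025533), argininosuccinate lyase, catalyses the step after that of Ass1. It had 1473, 1521 and 1590 normalized counts in control libraries and 1975, 1876 and 1870 in ferroptotic libraries (log2 difference 0.32, SE 0.05; limma adjusted p = 0.00151). The highest control library was well below the lowest ferroptotic one, and the rise was 1.25-fold. A near-identical copy of Ass1, Gm5424, matched it at 99.5% over 1240 bases and had 191 reads against 1155 for Ass1, and with its counts added Ass1 had a log2 difference of 0.95.

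**Figure D2:**
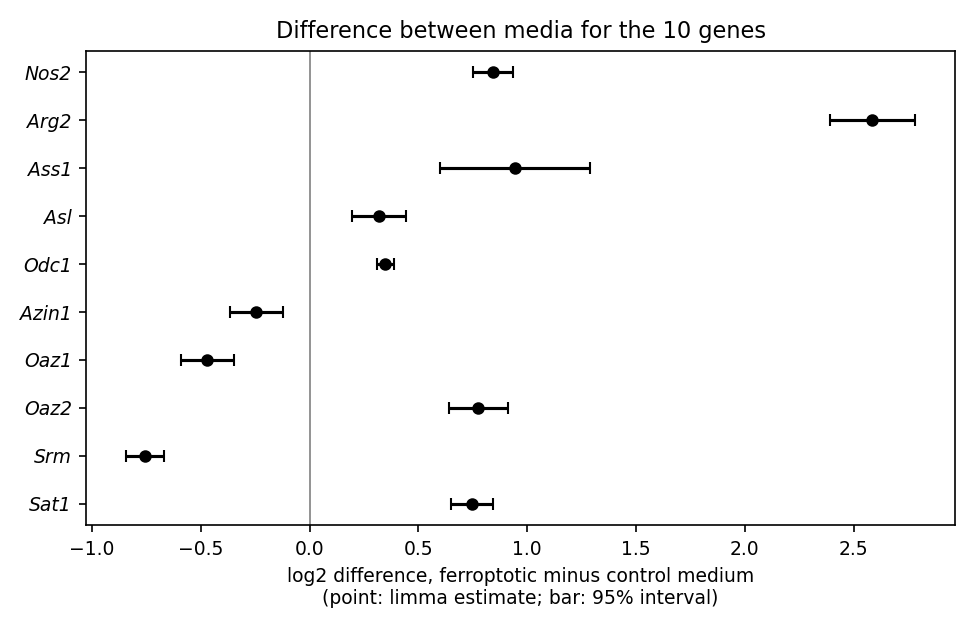
Log2 difference of each of the 10 genes, ferroptotic minus control medium (horizontal axis), with points for limma estimates and bars for 95% intervals. Arg2 is at 2.59, Ass1, Nos2, Oaz2 and Sat1 are between 0.75 and 0.94, and Srm is at -0.76.

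Odc1 (ENSMUSG00000011179), which encodes the enzyme that commits ornithine to polyamines, was among the most abundant genes of these cells. It ranked 4 or 5 by normalized counts in each of the 6 libraries and took 0.628% of reads with control and 0.788% with ferroptotic medium. Per kilobase of transcript its rank was 10 to 14. It had 266958, 266594 and 269866 normalized counts in control libraries and 341223, 338246 and 342417 in ferroptotic libraries. The groups were far apart relative to their spread, although the change was small: a log2 difference of 0.35 (SE 0.02; limma adjusted p = 7.73e-07), or 1.27-fold (95% interval 1.24 to 1.31). With quantile normalization the difference was 0.13 and did not pass (limma adjusted p = 0.105). That setting gives every library the same value at a given rank, so it could not measure the size of change of a gene ranked 4 or 5 throughout.

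Odc1 protein is controlled by antizymes, which bind it and send it to the proteasome, and which are themselves made through a ribosomal frameshift that polyamines promote. The antizyme genes here are Oaz1 and Oaz2. Azin1 encodes an antizyme inhibitor, a relative of ornithine decarboxylase without its activity, which binds antizymes in its place. RNA levels of these genes carry no information on the frameshift or on protein turnover.

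The antizyme genes moved in opposite directions. Oaz1 (ENSMUSG00000035242) had 3428, 3613 and 3598 normalized counts in control libraries and 2687, 2402 and 2596 in ferroptotic libraries. It was lower in every ferroptotic library (log2 difference -0.47, SE 0.05; limma adjusted p = 0.000135). Oaz2 (ENSMUSG00000040652) had 1210, 1261 and 1228 in control libraries and 2045, 2255 and 2041 in ferroptotic libraries. It was higher in every ferroptotic library (log2 difference 0.78, SE 0.06; limma adjusted p = 1.18e-05). Per kilobase of transcript, Oaz1 stood at 4.95 ± 0.0864 times Oaz2 in control and 2.09 ± 0.229 times in ferroptotic medium (exact permutation p = 0.1, the smallest possible).

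The sum of both antizyme genes per kilobase differed less than either gene, at 3980.0 ± 107 and 3539 ± 76.1 normalized counts (log2 difference -0.17; exact permutation p = 0.1). Oaz1 has a near-identical copy in the table, Oaz1-ps, which matched it at 99.3% over 685 bases and held 18737 reads against 18690 for Oaz1 itself. Reads of the pair may have been split between them by the counting. Oaz1-ps was lower too, with means of 3348 ± 96.8 and 2805 ± 175 (log2 difference -0.26, SE 0.05; limma adjusted p = 0.00499). With both counted as Oaz1 the means were 6894 ± 91.8 and 5367 ± 302, and the log2 difference was -0.36 (SE 0.05; limma adjusted p = 0.000246). With copies added to both genes, the ratio of Oaz1 to Oaz2 per kilobase was 9.34 ± 0.0295 in control and 4.25 ± 0.448 in ferroptotic medium. With Oaz1-ps the sum of the antizyme genes was 7106 ± 98.6 and 6158 ± 235 per kilobase. The ratios and sums thus depend on the copy for their size, and each kept its direction with it.

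**Figure D3:**
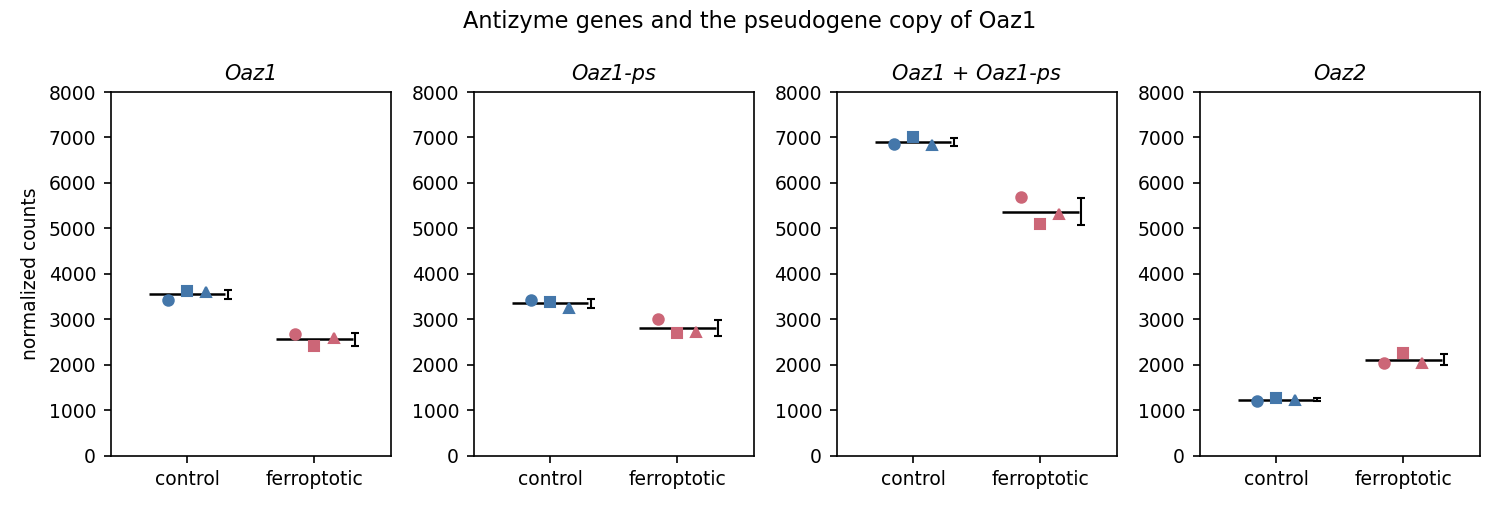
Normalized counts (vertical axes on the same scale from 0) of Oaz1, its copy Oaz1-ps, their sum and Oaz2 in control and ferroptotic medium; symbols are libraries, lines means and bars SDs over 3 libraries. Oaz1, Oaz1-ps and their sum are lower in ferroptotic medium, and Oaz2 is higher.

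Promoter sequences from RefSeq (GRCm38.p6, 250 bases before to 50 after the annotated start) matched 5 of the 10 genes: Ass1, Odc1, Oaz1, Oaz2 and Sat1. They were searched on both strands for CACGTG (E-box), a loose NF-kB form (GGG, any 5 bases, CC), an AP-1 form (TGA, any base, TCA), TGATGNAA (ATF4 composite), TGACGTCA (CRE) and TATAAA (the core of a TATA box). No AP-1, ATF4 or CRE match was found in these 5 windows. These motifs occur in 7.81%, 3.97% and 1.79% of the 32851 promoter windows in the table. The sequences of the antizyme genes are shown because these genes moved in opposite directions, that of Odc1 because of its abundance, and that of Ass1 because it holds the one E-box match. Capitals mark motif matches.
Oaz1 promoter (chr10:80826406-80826705, plus strand): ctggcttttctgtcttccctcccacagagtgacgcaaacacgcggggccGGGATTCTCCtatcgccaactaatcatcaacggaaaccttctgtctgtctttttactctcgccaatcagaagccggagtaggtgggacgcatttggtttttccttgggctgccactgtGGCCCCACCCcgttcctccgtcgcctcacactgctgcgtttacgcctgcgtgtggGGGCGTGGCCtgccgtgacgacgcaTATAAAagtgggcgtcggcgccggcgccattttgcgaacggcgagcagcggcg
Oaz2 promoter (chr9:65676298-65676597, plus strand): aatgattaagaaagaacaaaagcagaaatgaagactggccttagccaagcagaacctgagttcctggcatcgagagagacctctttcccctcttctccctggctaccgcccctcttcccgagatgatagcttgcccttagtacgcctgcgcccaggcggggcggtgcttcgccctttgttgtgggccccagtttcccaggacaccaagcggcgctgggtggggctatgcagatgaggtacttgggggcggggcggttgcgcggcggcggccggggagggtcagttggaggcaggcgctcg
Odc1 promoter (chr12:17544623-17544922, plus strand): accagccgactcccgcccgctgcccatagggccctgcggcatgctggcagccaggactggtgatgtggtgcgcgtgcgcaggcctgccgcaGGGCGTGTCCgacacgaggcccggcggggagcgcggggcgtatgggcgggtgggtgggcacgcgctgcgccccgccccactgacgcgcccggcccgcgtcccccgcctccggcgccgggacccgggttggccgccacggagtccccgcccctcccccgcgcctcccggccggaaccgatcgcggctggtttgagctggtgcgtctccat
Ass1 promoter (chr2:31470020-31470319, plus strand): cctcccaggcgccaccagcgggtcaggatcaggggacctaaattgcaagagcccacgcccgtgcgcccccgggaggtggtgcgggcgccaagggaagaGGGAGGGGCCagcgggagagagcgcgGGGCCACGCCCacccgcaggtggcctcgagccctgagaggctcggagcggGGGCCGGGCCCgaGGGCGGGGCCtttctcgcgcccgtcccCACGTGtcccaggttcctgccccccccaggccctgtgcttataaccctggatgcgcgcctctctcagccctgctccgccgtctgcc

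The windows of the antizyme genes differed in these letters. That of Oaz1 held 3 NF-kB matches and a TATAAA match starting 3 bases before the annotated start. Those of Oaz2 and Sat1 held no match to any of the 6 motifs. Odc1 held 1 NF-kB match, and Ass1 held 6 NF-kB matches, some overlapping each other, and a CACGTG starting 36 bases before its start. The NF-kB form occurs in 50.8% of all promoter windows, TATAAA in 13.6% and CACGTG in 7.15%. A match describes these letters only.

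Azin1 (ENSMUSG00000037458), the antizyme inhibitor gene, showed the smallest change of the 10. It had 4788, 4361 and 4299 normalized counts in control libraries and 3954, 3649 and 3737 in ferroptotic libraries. The highest ferroptotic library was below the lowest control library, by less than the range of the control libraries. The log2 difference was -0.25 (SE 0.05; limma adjusted p = 0.00589). Azin2, which encodes the other antizyme inhibitor and is far scarcer, moved the opposite way, from 102 ± 25.4 to 276 ± 26.9 normalized counts (log2 difference 1.45, SE 0.19; limma adjusted p = 0.000292).

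Odc1 RNA changed relative to all 3 of its regulators. The ratio of Odc1 to Azin1 per kilobase was 132 ± 8.10 and 199 ± 7.56, that to Oaz1 36.7 ± 1.02 and 64.6 ± 3.39, and that to Oaz2 181 ± 4.21 and 135 ± 8.36, in control and ferroptotic medium. The exact permutation p was 0.1 for each, the smallest possible. With near-identical copies added, the ratio of Odc1 to Oaz1 was 23.8 ± 0.388 and 38.8 ± 1.87. With and without copies, Odc1 was higher in ferroptotic medium relative to Oaz1 and Azin1 and lower relative to Oaz2.

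Srm (ENSMUSG00000006442), spermidine synthase, fell most of the 10. It had 7028, 7197 and 7072 normalized counts in control libraries and 4356, 4141 and 4095 in ferroptotic libraries. Every ferroptotic library was below every control library by far more than the spread within a group. The log2 difference was -0.76 (SE 0.04; limma adjusted p = 8.88e-07), which left 0.591 of the control level (95% interval 0.557 to 0.628).

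Sat1 (ENSMUSG00000025283) encodes spermidine/spermine acetyltransferase, which marks polyamines for export or oxidation. It had 4389, 4636 and 4760 normalized counts in control libraries and 7504, 7842 and 7774 in ferroptotic libraries. All ferroptotic libraries were higher, by a log2 difference of 0.75 (SE 0.04; limma adjusted p = 1.71e-06), or 1.68-fold. Srm and Sat1 act in opposite directions on spermidine, and per kilobase the ratio of Sat1 to Srm was 0.745 ± 0.0281 in control and 2.12 ± 0.115 in ferroptotic medium (exact permutation p = 0.1, the smallest possible).

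Levels of the 10 genes can be ordered per kilobase, with lengths of the longest protein-coding transcript in GENCODE M21, which may not be the authors' annotation. In control medium the order was Odc1 (121289 ± 812 normalized counts per kilobase), Srm (5306 ± 65.7), Sat1 (3954 ± 163), Oaz1 (3311 ± 96.0), Nos2 (1742 ± 62.3), Azin1 (920.3 ± 54.7), Oaz2 (669 ± 13.8), Asl (633 ± 24.4), Arg2 (130.2 ± 7.67) and Ass1 (78.7 ± 11.3). Only the neighbours Oaz2 and Asl overlapped there. In ferroptotic medium the order was Odc1 (154270.1 ± 973), Sat1 (6632 ± 154), Srm (3137 ± 104), Nos2 (3126 ± 115), Oaz1 (2392 ± 136), Oaz2 (1147 ± 66.5), Asl (790.1 ± 24.5), Arg2 (786 ± 24.8), Azin1 (776 ± 32.2) and Ass1 (151 ± 16.0). There Srm and Nos2 overlapped, as did Asl, Arg2 and Azin1, so Arg2 moved from below Asl and Azin1 to their level. These orders leave out near-identical copies: with Oaz1-ps added, Oaz1 had 6437 ± 85.8 per kilobase in control medium, above Srm, and 5011 ± 282 in ferroptotic medium, above Srm and Nos2.

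Other genes of the pathway were called in both directions. In 8 lists by role with 57 genes, 43 passed the filter, 7 were below it and 7 were not matched. Of the 43, 14 (32.6%) were higher and 12 (27.9%) lower at a limma adjusted p of 0.05, beside 19.7% and 22.8% of all genes tested, with a median log2 difference of 0.03 against -0.01 over all genes tested.

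Of 7 measured arginine and ornithine transporter genes, 3 rose (Slc7a1, Slc7a7 and Slc3a2), 1 fell (Slc25a15) and 3 did not pass. Among all genes tested, 19.7% rose and 22.8% fell. Slc7a1, the main cationic amino acid importer, went from 12232 ± 314 to 17213 ± 247 normalized counts (log2 difference 0.49). Slc7a7 (1.17) and its heavy-chain partner Slc3a2 (1.24) form an exchanger of cationic and neutral amino acids. Slc3a2 was far more abundant, at 7232 ± 441 normalized counts in control medium against 647 ± 49.1 for Slc7a7. Whether its rise bears on arginine transport was not tested. Slc25a15, the mitochondrial ornithine carrier, went from 503 ± 53.9 to 312 ± 38.4 (-0.69). Those that did not pass were Slc7a6 (0.02), Slc25a29 (0.27) and Slc7a3 (1.28, SE 1.00). Slc7a3 had 59 reads in all, and its difference was 0.09 without control replicate 1, 1.93 without control replicate 2 and 0.49 with a pseudocount of 8.

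Nitric oxide synthases need tetrahydrobiopterin, and of 5 measured genes of that cofactor reported here 1 (20%) rose, close to the 19.7% of all genes tested. Gch1, its rate-limiting enzyme, went from 2352 ± 48.6 to 4957 ± 101 normalized counts (log2 difference 1.08, SE 0.04; limma adjusted p = 1.94e-07). Gchfr (0.16), Pts (0.04), Spr (0.03) and Qdpr (-0.11) did not pass, so the rise was measured in Gch1 alone among the enzymes that make the cofactor.

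Among 6 measured nitric oxide synthases and modulators, 2 rose and 2 fell, where 19.7% and 22.8% of all genes tested did, and neither fall held under every alternative. The endothelial synthase gene Nos3 went from 14.4 ± 5.34 to 55.3 ± 14.6 normalized counts (log2 difference 1.89, SE 0.35; limma adjusted p = 0.00243), so Nos2 was by far the most abundant synthase gene. Nostrin rose (0.29). Nosip (-0.15) and Prmt1 (-0.65), an arginine methyltransferase, fell, with calls that did not hold when single libraries were left out. The call of Prmt1 was lost without control replicate 2 or 3 or ferroptotic replicate 2 or 3 (limma adjusted p from 0.0931 to 0.112), without a filter on low values (0.0568) and with a replicate block (0.116). That of Nosip was lost without control replicate 1 or 3 or any ferroptotic replicate (limma adjusted p from 0.0581 to 0.109), without a filter (0.0525), with quantile normalization (0.124) and with a replicate block (0.0658). Nos1 (-0.77, SE 0.33) and Ddah2 (0.25) did not pass, and the genes of the nitric oxide receptor, soluble guanylate cyclase, were not matched.

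Of 4 measured other enzymes of arginine and ornithine, 3 were lower and 1 higher, beside 22.8% and 19.7% of all genes tested. Oat, ornithine aminotransferase, went from 4191 ± 151 to 3022 ± 17.5 normalized counts (log2 difference -0.47). The creatine synthesis genes Gatm (-0.48) and Gamt (-0.61) also fell. Aldh18a1, which makes the precursor of ornithine and proline from glutamate, went from 4696 ± 62.0 to 9325 ± 255 (0.99).

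Of 9 measured other genes of polyamine metabolism, 4 (44.4%) were lower, 3 (33.3%) higher and 2 did not pass, with a median log2 difference of 0.02. Over all genes tested, 22.8% were lower and 19.7% higher. Amd1, the decarboxylase that supplies aminopropyl groups, went from 4530 ± 142 to 2996 ± 88.0 normalized counts (log2 difference -0.60, SE 0.04; limma adjusted p = 9.09e-06). Amd2 (-0.62), a close copy whose reads may not be fully told apart from those of Amd1, fell with it. Sms, spermine synthase, went from 7873 ± 212 to 5571 ± 152 (-0.50), and Mtap (-0.43), which salvages the by-product of both aminopropyl transfers, also fell. Smox, spermine oxidase, went from 2845 ± 249 to 5162 ± 308 (0.86, SE 0.07; limma adjusted p = 1.83e-05), and Paox, which oxidises the polyamines that Sat1 acetylates, rose by 0.40. Sat2 (0.35) and Oaz3 (0.02) did not pass. The third gene that rose was Azin2 (1.45).

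**Figure D4:**
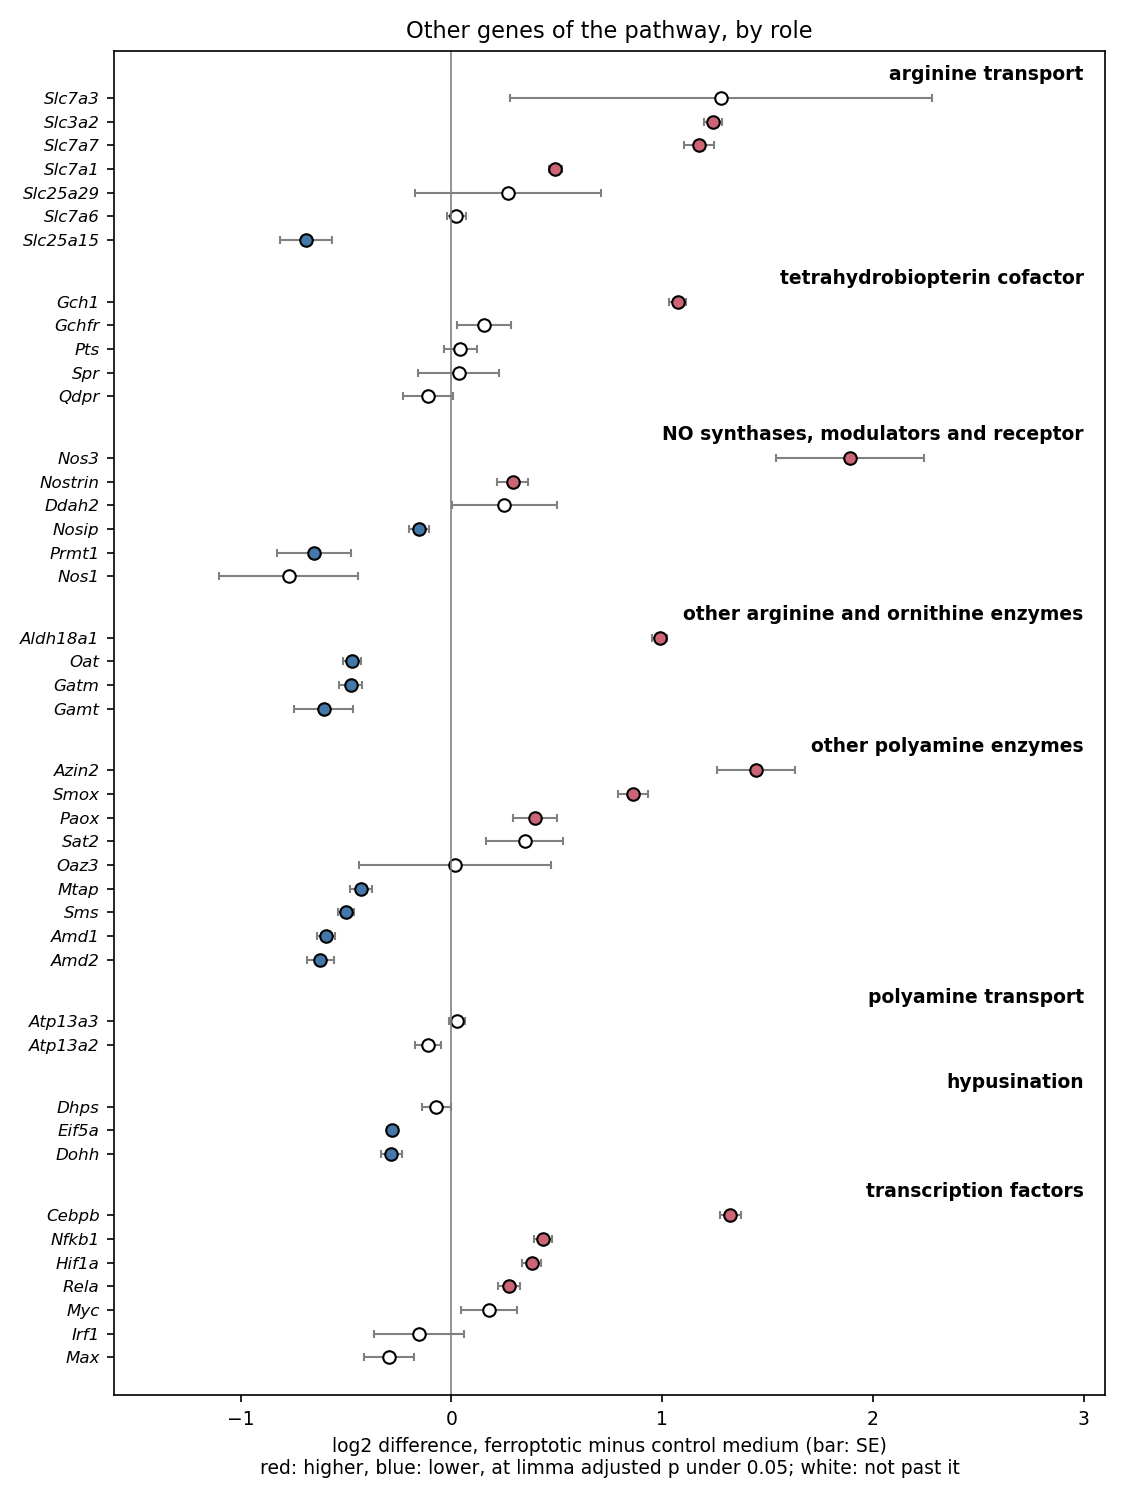
Log2 difference, ferroptotic minus control medium (horizontal axis), of the 43 other pathway genes that passed the filter, grouped by role, with bars for SE; red marks higher, blue lower and white not past a limma adjusted p of 0.05. Amd1, Amd2, Sms and Mtap are on the lower side and Smox and Paox on the higher side.

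Spermidine is also the donor for hypusine, the modified residue of the translation factor encoded by Eif5a. Eif5a went from 45400 ± 1109 to 37398 ± 279 normalized counts (log2 difference -0.28), and Dohh, the hydroxylase of the second modification step, fell too (-0.29, from the more abundant of 2 gene IDs with this symbol). Dhps, which takes the aminobutyl group from spermidine, had a difference of -0.07 and did not pass. The polyamine transporter genes Atp13a2 (-0.11) and Atp13a3 (0.03) did not pass either.

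Transcription factor genes known from the control of Nos2 or Odc1 were listed as well, and 4 of 7 measured were higher, where 19.7% of all genes tested were. Cebpb went from 4629 ± 92.1 to 11605 ± 741 normalized counts (log2 difference 1.32), and Nfkb1 (0.43), Hif1a (0.38) and Rela (0.28) also rose. Myc, a known activator of Odc1, was scarce at 203 ± 18.9 and 230 ± 26.2 and did not pass (0.18). Irf1 (-0.16) and Max (-0.30) did not pass with all libraries, but Irf1 was lower without control replicate 2 (-0.39; limma adjusted p = 0.03), and Max was lower without ferroptotic replicate 3 (-0.39; limma adjusted p = 0.0284) and with a replicate block (limma adjusted p = 0.00231).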

How the data were processed

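RNA from 3 control and 3 ferroptotic medium samples of microglia was sequenced on an Illumina NovaSeq instrument, per the labels' protocols. The submitters' processing notes list HISAT2 2.1.0 and fastp 0.17.1, and also R 3.4.3 with DESeq2 1.18.1. Build, annotation, counter and strand setting were not given in the sources used here. Deposited log2 values by the authors are log2(normalized count + 1), inferred from the values: with the log undone, 100% of low values were whole multiples, within 0.01, of 1 step per library. These reads may be rounded estimates, since 6101 values came to 3 reads and only 5169 to 2. The authors deposited FPKM for 1699 genes, and their deposited p-values were not used.

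The test was limma 3.58.1 (trend, robust, two-sided; R 4.3.3) on the deposited log2 values of 15597 genes that reached 10 normalized counts in 3 or more libraries, with Benjamini-Hochberg adjustment over all of them. On simulated counts it recovered 85.0% of 0.5-fold, 86.4% of 1.5-fold, 90.5% of 2-fold and 100% of 4-fold changes, with 3.21% of calls false. Unlike these data, the simulation gave every gene the same dispersion and changed few genes. Fold changes are on the log2(normalized count + 1) scale and understate those of low genes. Intervals are limma's, at 95%. Copies, also called near-identical copies, were genes of the table that matched a member transcript of GENCODE M21 by blastn. The match had 90% identity or more over at least 200 bases. Of the gene IDs, 26051 of 26096 had an M21 length. No library pair within a group looked like 1 library deposited again (chi-square per degree of freedom 16.6 to 23.3). Named were all 10 members, up to 3 genes with the smallest p of each role list, and, after their values were seen, the remaining measured genes of these lists. Some genes of these lists are not reported here and were left out of the lists' counts. Members and lists were chosen with earlier results of these data known.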

Additional observations from a re-analysis of the deposited data

How the results depend on the processing

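The 10 genes kept their direction in all 151 values computed under alternatives: pseudocount 8, a minimum of 1 normalized count or none, quantile normalization, limma-voom on whole reads, a constant prior variance, a replicate block, leaving out each library, deposited FPKM (Arg2), and, chosen after seeing the data, scaling by total reads and adding near-identical copies. Of these, 150 had a test (the FPKM value of Arg2 had none), and calls held in 149. The exception was Odc1 with quantile normalization (log2 difference 0.13, limma adjusted p = 0.105). That setting gives every library the same value at a given rank. Odc1 ranked 4 or 5 in each library, so the setting could not measure the size of its change. Azin1 ranged from -0.28 to -0.18, with a largest limma adjusted p of 0.0334. The counts of all tested genes called ranged from 2668 to 3301 higher and 3030 to 3774 lower. Over all genes tested, deviations of same-numbered samples from their group means had correlations of 0.00859, -0.0197 and -0.0393. Such correlations cannot decide whether the numbers pair the samples, since a shared batch may touch only some genes. With the replicate block Nos2 had 0.84 (limma adjusted p = 6.58e-05) and Azin1 -0.25 (0.00511), 7 members were higher and 3 lower, and 2914 and 3312 of all genes were called. Among the other pathway genes 14 of 645 values lost a call, all of them of Nosip and Prmt1, 4 gained one and 0 reversed. With 3 libraries a group, a ratio within libraries cannot reach an exact permutation p below 0.1. At 117 reads in its lowest library, Ass1 has the least depth of the 10.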

Other observations

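Odc1 had 12 copies among the genes of the table, by M21 transcripts, which matched it at 91.8% to 97.8% identity. Together they held 477301 reads against 1825878 for Odc1 over the 6 libraries, or 26.1 for every 100. Most of these lay on Gm7993, which matched Odc1 at 95.7% over 1388 bases and had 52777 ± 951 and 66436 ± 1357 normalized counts (SD, n = 3; log2 difference 0.33, SE 0.03; limma adjusted p = 1.29e-05), close in size of change to Odc1 itself (0.35). Gm17709, with 69636 reads, had a difference of 0.30 (limma adjusted p = 0.0524). With all 12 copies added, Odc1 went from 338575 ± 1164 to 428732 ± 3111 (log2 difference 0.34). Whether these reads came from Odc1 or from the copies was not tested. Sat1 and Srm had copies with 70 and 2 reads in all, and Nos2, Arg2, Asl and Azin1 had 0 by the same rule.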
